A study of Mus musculus with 9 samples.

Results

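The spleen cells of CIA mice given luteolin were compared with those of control mice over every gene of the deposited count table, to describe what remained different from control after treatment. CIA is the usual short name of collagen-induced arthritis, a mouse model of rheumatoid arthritis in which immunisation with collagen leads to joint inflammation, although the labels do not spell it out. Luteolin is a plant flavone. The comparison takes 6 of the 9 libraries of the study, namely the 3 labelled CIA mice treated with luteolin and the 3 labelled control mice. The remaining 3, from CIA mice without luteolin, are given beside them and entered the fit. All groups are described as CD4+ T cells of mouse spleen. The strain, age and sex of the mice, and the dose, route and duration of luteolin, are not given in the sources used here. Whether a library is 1 mouse, a pool or a repeat of 1 sample is not stated either. Each p thus rests only on the spread within the groups of all 9 libraries, CIA included, which may be technical.

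The control libraries held 40553934, 38520680 and 31234177 counts, those of luteolin-treated CIA mice 41815573, 39074896 and 33436951, and those of CIA mice between 31851523 and 35670309. Levels are CPM, counts scaled to a common library size with TMM normalisation, given for the 3 libraries of a group in the order of their numbers or as mean ± SD with n = 3. A change is a log2 fold change ± SE from edgeR's quasi-likelihood fit. The SE was derived as the size of the change over the square root of the test's F statistic. For genes near 0 in control, such as Elane, Serpina3b and Samd5, it can understate the uncertainty. A gene was said to rise or fall where its p in that test, adjusted over all 19348 genes tested, was under 0.05. Both mates of a read pair appear to have been counted, since 73.4% of counts from 1 to 10 were even.

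The labelled cell type was checked on its markers. Cd4, which encodes the co-receptor that names these cells (chromosome 6, 124841655 to 124865184, build mm39), stood at 3.65, 2.46 and 2.66 CPM in the libraries labelled control and at 106, 106 and 98.5 CPM in those of luteolin-treated mice. It was thus close to absent from every control library, and directions drawn against control rest on those libraries. The 13 marker genes of T cells summed to 262 to 318 CPM in the control libraries, 451 to 701 in CIA and 503 to 544 with luteolin. The 19 marker genes of B cells summed to 6457 to 6825 CPM in control and 4747 to 5263 with luteolin (without Ighm, 3915 to 4133 and 866 to 1057). The 20 genes of later neutrophil granules and mature neutrophils summed to 2946 to 3279 CPM in control and 9809 to 10600.2 with luteolin. Markers of other cells were thus present in every library. In bulk RNA, fewer cells of a type and less RNA per cell cannot be told apart.

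Of the 19348 genes tested, 8708 differed between luteolin-treated CIA mice and control, which is 45% of them. Higher levels with luteolin were called for 4683 genes, 24.2% of those tested, and lower levels for 4025, 20.8%. A change of 2-fold or more was called upward for 2546 genes (13.2%) and downward for 1123 (5.8%). In 12246 genes, 63.3% of those tested, the 3 libraries of a group all lay above or all below the 3 of the other. The median log2 fold change over all genes was -0.01. Counts within a gene list are to be read against these shares, since the share of all genes called was itself large.

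**Figure D1:**
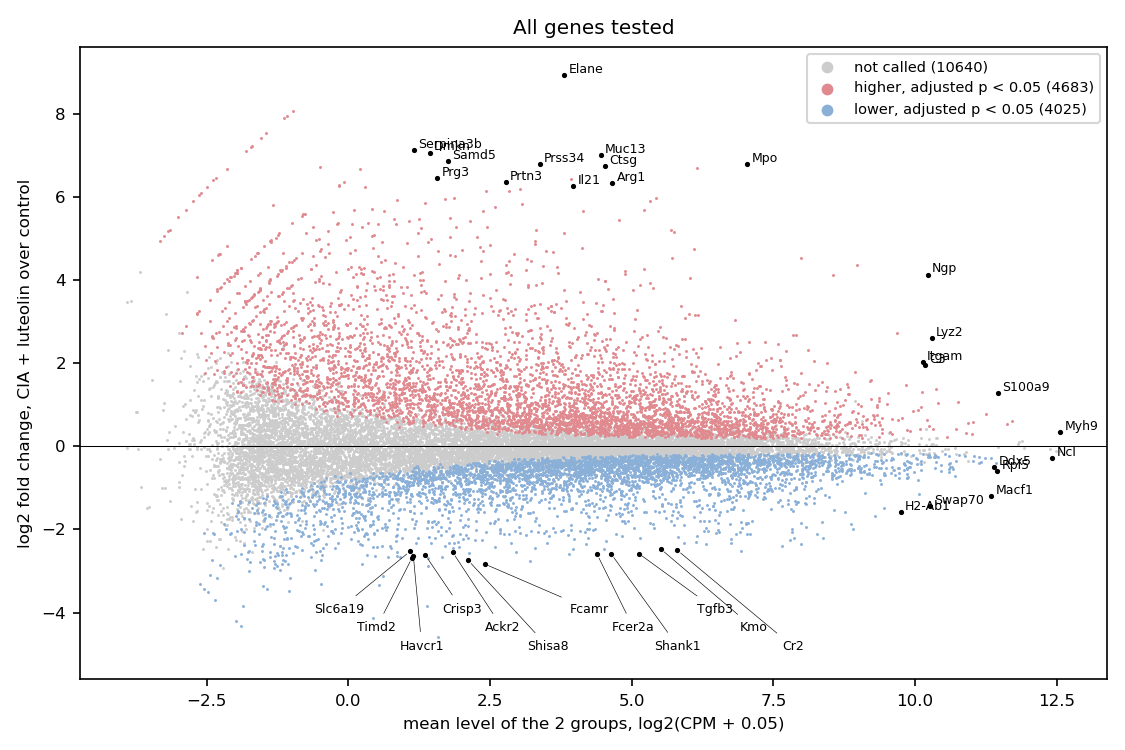
Log2 fold change of CIA with luteolin over control (vertical axis) against the mean level of both groups as log2(CPM + 0.05) (horizontal axis), 1 point a gene, with the 4683 higher and 4025 lower genes in colour. The largest rises named lie between 6.26 and 8.92, whereas the largest falls named lie between -2.83 and -2.48.

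With immunoglobulin and T cell receptor genes, pseudogenes and unnamed gene models passed over, the 12 largest rises among genes with a mean of at least 2 CPM and groups that did not overlap were Elane, Serpina3b, Dmkn, Muc13, Samd5, Prss34, Mpo, Ctsg, Prg3, Prtn3, Arg1 and Il21. Of these, 4 encode granule proteases or the peroxidase of neutrophil precursors (Elane, Mpo, Ctsg, Prtn3), Prss34 is a basophil protease, and Prg3 encodes a protein related to the major basic protein of eosinophil granules. The 12 largest falls by the same rule were Fcamr, Shisa8, Timd2, Havcr1, Crisp3, Fcer2a, Shank1, Tgfb3, Ackr2, Slc6a19, Cr2 and Kmo. Fcer2a encodes the low-affinity IgE receptor CD23 and Cr2 the complement receptor CD21, both of B cells, and Fcamr a receptor for IgA and IgM. Each of these falls was smaller in log2 size than each of these rises.

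**Figure D2:**
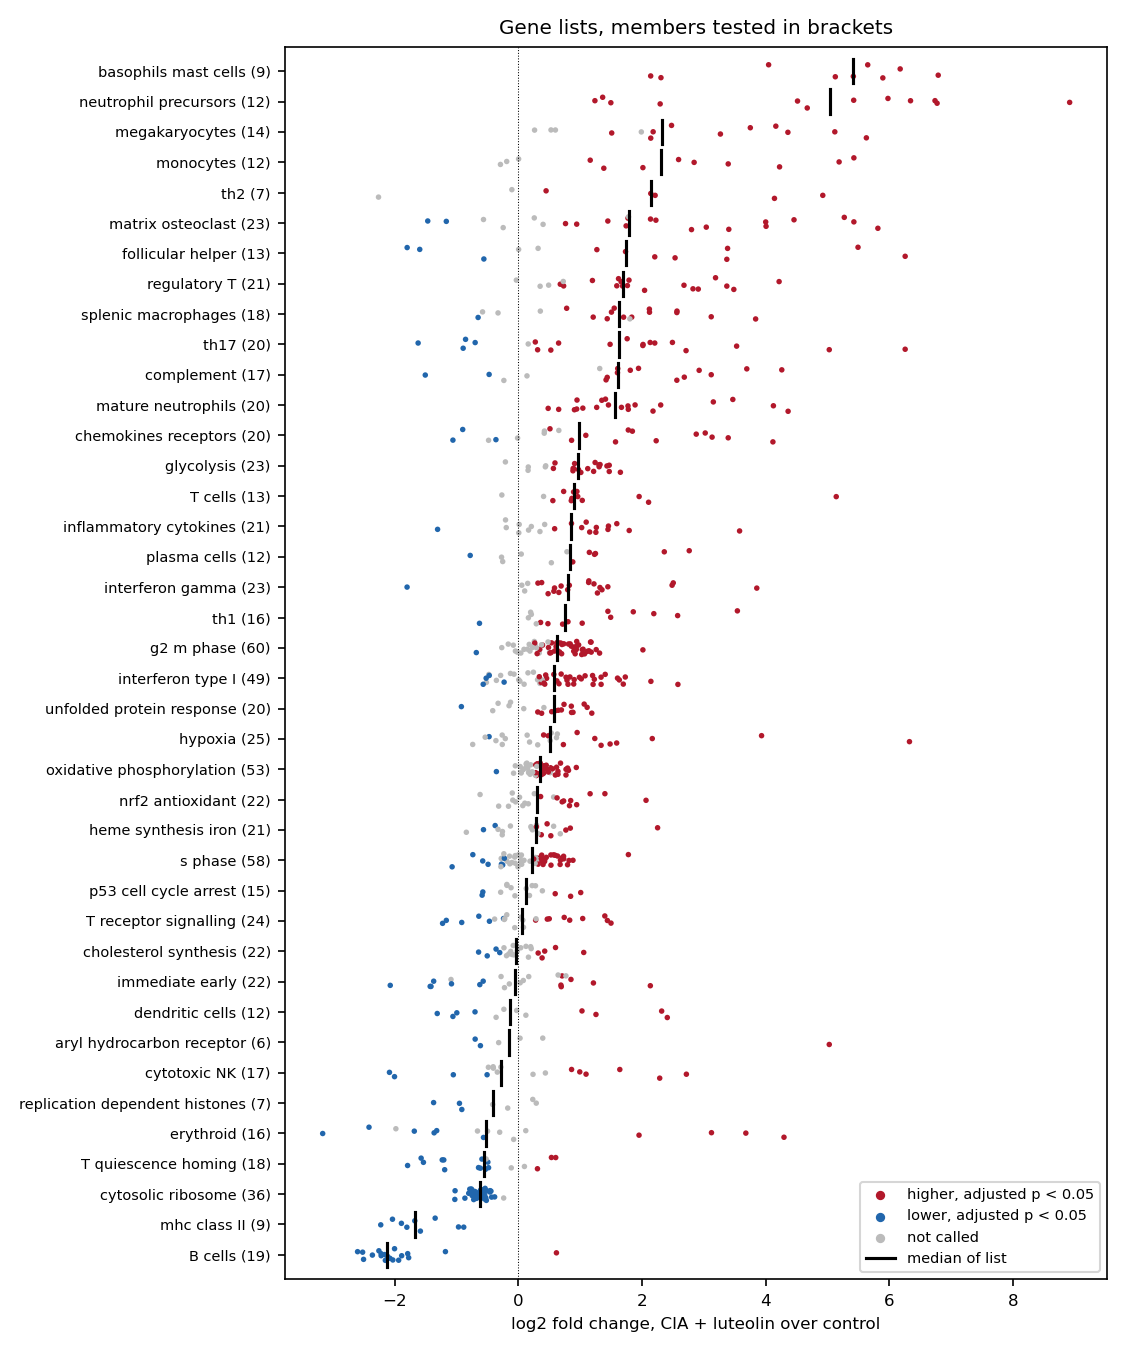
Log2 fold change of CIA with luteolin over control for the tested members of 40 gene lists, 1 point a gene, coloured by call, with a black bar at each list's median. Basophil and neutrophil precursor genes lie farthest to the right, at medians of 5.42 and 5.05, and B cell genes farthest to the left, at -2.12.

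Helper T cells are grouped by the cytokines they make and by the factors that set their fate: Th17 cells by IL-17, regulatory T cells by Foxp3, follicular helper cells by Bcl6, Th1 cells by T-bet (Tbx21) and interferon gamma, and Th2 cells by Gata3 and IL-4. In arthritis models Th17 cells are studied as drivers of inflammation and regulatory T cells as its brake, and the title of the series names Th17 differentiation. Cytokine genes are usually low in resting T cells, and the counts of several of them here, such as Il17a, Il17f and Il4, were small.

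Genes of the Th17 program were mostly still above control after luteolin. Of 20 tested members 15 rose, 4 fell and 1 did not pass, against 24.2% higher and 20.8% lower over all genes, and the median log2 fold change was 1.62. Among the cytokines, Il21, a product of Th17 and follicular helper cells, stood at 0.40, 0.307 and 0.506 CPM in control, 23.5, 33.6 and 39.3 in CIA and 32.8, 26.3 and 33.4 with luteolin. Every luteolin library was far above every control library and within or near the range of CIA, for a log2 fold change of 6.26 ± 0.26 over control (adjusted p = 2.24e-07) and -0.06 ± 0.18 over CIA (adjusted p = 0.809). The antisense gene model Gm12534 covers 8.92% of the exonic bases of Il21, and counts of the pair cannot be told apart.

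Il22, which acts on epithelia, had 2, 2 and 2 counts in the control libraries and 68, 84 and 65 with luteolin. The ratio of the summed counts was 34.6, with an exact 95% interval of 11.5 to 169.7 when counts are halved for the mates of a pair, for counting error only. In the fit Il22 rose by 5.03 ± 0.60 over control, and it was also above CIA by 1.67 ± 0.44 (adjusted p = 0.00943). Of the IL-17 genes, both under the filter on low counts, Il17a had 0, 0 and 0 counts in control, 0, 0 and 0 in CIA and 2, 2 and 0 with luteolin. Il17f had 0, 1 and 6 counts in control, 4, 2 and 4 in CIA and 26, 9 and 24 with luteolin, and in an edgeR fit without the filter it was higher with luteolin than in control (2.92 ± 0.75, adjusted p = 0.000680). Every luteolin library held more Il17f counts than any control library, while a difference in Il17a was not detectable at this depth. The p of the fit without the filter cannot be set beside those of the filtered fit. In filtered fits that left out a library, Il17f missed the threshold without control replicate 1 or 2 (2.30 to 2.52). It stood at 5.02 without control replicate 3. These fits differ from the one without the filter in the filter as well as in the libraries.

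Among the receptors, Il23r, the IL-23 receptor chain that sustains Th17 cells, went from 0.50, 0.435 and 0.886 CPM in control to 3.80, 3.65 and 4.36 with luteolin (2.71 ± 0.43, adjusted p = 0.000559). It did not pass between luteolin and CIA (0.45 ± 0.37, adjusted p = 0.344). Il12rb1, the chain shared by the IL-12 and IL-23 receptors, rose by 2.13 ± 0.23 and Il1r1, the IL-1 receptor, by 2.02 ± 0.39. Ccr6, a chemokine receptor of Th17 cells and of B cells, fell from 42.9 ± 5.30 to 14 ± 0.913 CPM (-1.62 ± 0.40), and 49.4% of its exonic bases overlap other genes.

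Among the transcription factors, Rora, a nuclear receptor gene, rose from 21.7, 21.4 and 24.0 CPM in control to 76.8, 65.5 and 85.1 with luteolin (1.76 ± 0.29, adjusted p = 0.000667), and stood at 66.1, 121 and 183 in CIA. Every luteolin library was above every control library for Rora. Maf, a factor that both Th17 and follicular helper cells use, rose from 20.2 ± 3.95 to 93.6 ± 18.3 CPM (2.21 ± 0.22) and Hif1a, the oxygen-sensitive factor, by 1.49 ± 0.12. Stat3, which carries the IL-6 signal, rose by 0.28 ± 0.08. The 4 members that fell were Ccr6, Irf4 (-0.85 ± 0.21), Ahr, the aryl hydrocarbon receptor (-0.70 ± 0.10), and Tgfbr2, a TGF-beta receptor chain (-0.89 ± 0.14). Stat3 missed the threshold without control replicate 1 or 2 or luteolin replicate 3 (0.23 to 0.26) and with upper-quartile scaling (0.22).

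**Figure D3:**
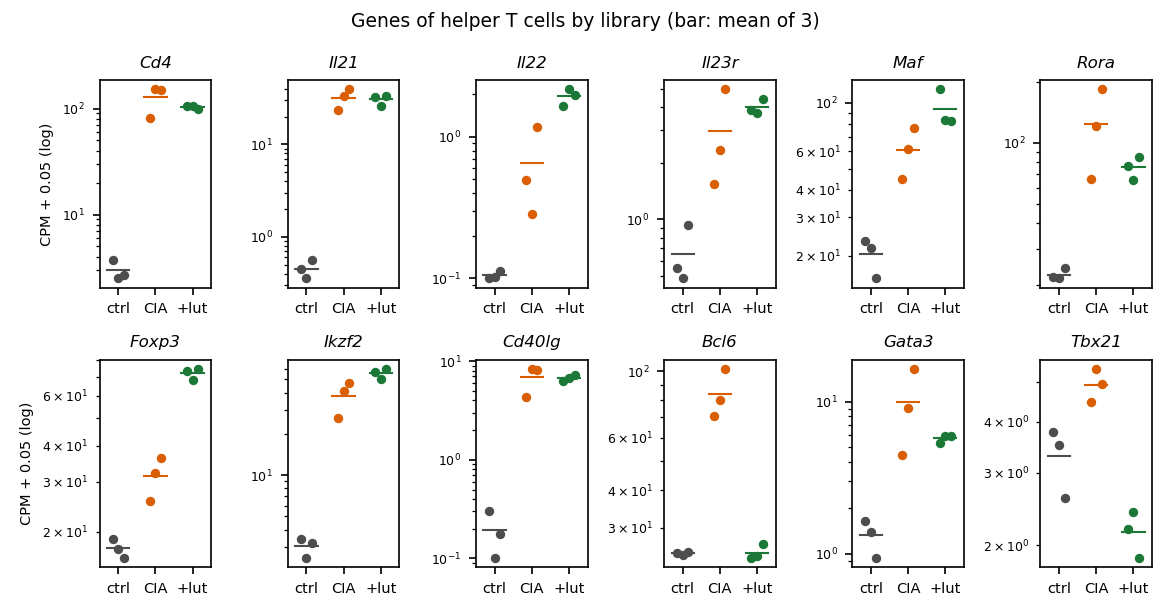
Levels of 12 helper T cell genes in each library as CPM + 0.05 on a log axis, for control, CIA and CIA with luteolin, with a bar at the mean of each group of 3. Luteolin libraries lie above control for 10 of the genes, whereas Bcl6 overlaps control and Tbx21 lies at 2.14, 2.37 and 1.81 CPM against 3.73, 3.46 and 2.56.

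The regulatory T cell program was higher than in control, with 17 of 21 tested genes up and none down (median 1.69). Foxp3 stood at 18.8, 17.4 and 16.1 CPM in control, 25.6, 32.1 and 36.3 in CIA and 73.1, 68.2 and 74.4 with luteolin. The 3 groups did not overlap, and luteolin was above control by 2.04 ± 0.13 (adjusted p = 1.73e-06) and above CIA by 1.20 ± 0.12 (adjusted p = 2.95e-05). Other genes overlap 31.5% of the exonic bases of Foxp3. Ikzf2, which encodes the factor Helios, rose from 3.35, 2.43 and 3.16 to 56.6, 50.7 and 59.4 CPM (4.22 ± 0.22). Tnfrsf9, the costimulatory receptor 4-1BB, rose from 3.63 ± 0.302 to 33.2 ± 2.57 CPM (3.19 ± 0.17). Il2ra, which encodes CD25 of the IL-2 receptor, rose by 1.69 ± 0.15, Ctla4, an inhibitory receptor, by 1.59 ± 0.16, and Tigit, another, by 3.49 ± 0.25. Il10, the anti-inflammatory cytokine gene, was at 7.21 ± 0.206 CPM in control, 23.7 ± 9.71 in CIA and 10.1 ± 0.620 with luteolin and did not pass (0.49 ± 0.25, adjusted p = 0.132). Il10 passed with no filter on low counts and in a fit of the 6 libraries alone (0.49 to 0.51). The p values of the fit with no filter cannot be set beside those of the filtered fit.

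Follicular helper genes were divided. Of 13 tested members 8 rose, 3 fell and 2 did not pass (median 1.73). Cd40lg, the ligand with which helper cells stimulate B cells, rose from 0.250, 0.0512 and 0.127 to 6.22, 6.67 and 7.13 CPM (5.50 ± 0.40), and Pdcd1, the receptor PD-1, from 6.57 ± 1.49 to 38.0 ± 1.96 CPM (2.54 ± 0.19). Icos, a costimulatory receptor, rose by 3.37 ± 0.42 over control and was below CIA (-1.58 ± 0.35, adjusted p = 0.00409). The lineage factor gene Bcl6 stood at 24.6, 24.3 and 24.8 CPM in control, 70.6, 80.3 and 101 in CIA and 23.7, 24.1 and 26.3 with luteolin, and did not pass against control (0.01 ± 0.12, adjusted p = 0.975). Cxcr5, which guides these cells and B cells to follicles, fell from 67.0 ± 1.33 to 22.2 ± 2.41 CPM (-1.59 ± 0.22), as did the inhibitory receptor gene Btla (-1.80 ± 0.42) and Slamf6 (-0.56 ± 0.09). Cd40lg stood at 6.23 without control replicate 1.

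Of 16 Th1 genes 11 rose, 1 fell and 4 did not pass (median 0.76). Ifng, the cytokine of Th1 cells, rose from 0.15, 0.0768 and 0 to 1.07, 0.982 and 0.861 CPM (3.54 ± 0.60). Other genes cover 25.9% of the exonic bases of Ifng. Havcr2, the inhibitory receptor TIM-3, rose from 6.96 ± 1.02 to 41.7 ± 3.62 CPM (2.58 ± 0.33). Tbx21, the factor gene of the lineage, was the member that fell (-0.63 ± 0.19, adjusted p = 0.0190). Of 7 Th2 genes 5 rose and none fell (median 2.14). Gata3 rose from 1.60, 1.33 and 0.886 to 5.29, 5.89 and 5.91 CPM (2.14 ± 0.42) and Il1rl1, the IL-33 receptor, which is also on basophils and mast cells, from 0.614 ± 0.196 to 18.8 ± 1.84 CPM (4.93 ± 0.43). Il4 had 3, 4 and 3 counts in control and 23, 11 and 16 with luteolin (2.21 ± 0.60). Ifng stood at 4.43 without control replicate 1. Tbx21 missed the threshold without control replicate 1 or 2 or luteolin replicate 1 or 3 (-0.63 to -0.52). Il4 missed the threshold without control replicate 1 or luteolin replicate 1 (2.01 to 2.09).

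General T cell genes rose less than Cd4. Among 13 markers 11 rose, none fell and 2 did not pass (median 0.89). Cd3e, a chain of the T cell receptor complex, went from 14.8, 13.9 and 11.6 to 23.4, 26.9 and 24.9 CPM (0.89 ± 0.21), a rise of 1.86-fold, while the fold of Cd4 was 35.4. Cd5 rose by 2.11 ± 0.21 and Cd6, another surface glycoprotein, by 1.96 ± 0.20. Cd8a, the co-receptor of cytotoxic T cells, fell from 18.7, 19.7 and 14.4 to 3.94, 5.06 and 3.44 CPM (-2.08 ± 0.18), and Cd8b1 fell as well (-2.00 ± 0.18). The part that the amount of T cell RNA has in the helper gene results was not tested. Nor was the part of RNA from other cells, whose markers were present in every library.

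Genes of resting and circulating T cells were mostly lower. Of 18 members 3 rose, 12 fell and 3 did not pass (median -0.56). S1pr1, the receptor by which lymphocytes leave lymphoid organs, fell from 131 ± 3.67 to 45.4 ± 4.38 CPM (-1.53 ± 0.18). Falls were also called for Klf2, a factor that sustains S1pr1 (-1.57 ± 0.31), Foxo1 (-1.23 ± 0.16), Foxp1 (-1.20 ± 0.15) and Bach2 (-1.79 ± 0.27), transcription factors of naive lymphocytes. Tcf7 (0.61 ± 0.17), Il7r (0.54 ± 0.15) and Itga4 (0.31 ± 0.08) rose. B cells express several of these genes as well, and the B cell markers were lower in the same libraries. The part of B cell RNA in these falls was not tested. Tcf7 missed the threshold without control replicate 3 (0.55). Il7r missed the threshold without control replicate 3 (0.44). Itga4 missed the threshold without luteolin replicate 3 (0.26).

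Neutrophils make their granules in order as they mature in the marrow or, in inflammation, the spleen: azurophil granule proteins (myeloperoxidase and the proteases elastase, cathepsin G and proteinase 3) in early precursors, lactoferrin and cathelicidin later, and gelatinase and S100 proteins in mature cells. Transcripts of the first class are therefore markers of precursors. They are not typical products of CD4+ T cells.

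The tested genes of neutrophil precursors were all above control: 12 of 12 rose, against 24.2% of all genes, with a median of 5.05. Their summed level was 251 to 284 CPM in control, 337 to 526 in CIA and 1564 to 1597 with luteolin. The median of CIA against control was 1.09. Mpo, the myeloperoxidase gene (chromosome 11, 87684407 to 87695239, build mm39), stood at 3.85, 1.59 and 1.61 CPM in control, 1.92, 1.26 and 1.46 in CIA and 249, 293 and 241 with luteolin. Control and CIA overlapped while every luteolin library was far above them (6.78 ± 0.31, adjusted p = 2.87e-07). Elane, neutrophil elastase (chromosome 10, 79722081 to 79724049), had 4, 2 and 0 counts in the control libraries and 1232, 1184 and 825 with luteolin. The ratio of its summed counts was 517, with an exact 95% interval of 177 to 2509 on halved counts. In the fit the change of Elane was 8.92 ± 0.36. Elane stood at 9.78 without control replicate 1.

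Ctsg, the cathepsin G gene, rose from 0.600, 0.307 and 0.348 to 45.3, 49.3 and 42.5 CPM (6.74 ± 0.24), and Prtn3, the proteinase 3 gene, from 0.250, 0.102 and 0.127 to 12.6, 15.2 and 12.6 CPM (6.35 ± 0.37). Fcnb, a ficolin of the lectin pathway, rose from 1.32 ± 0.272 to 84.1 ± 11.1 CPM (5.98 ± 0.23) and Ms4a3, a membrane protein of granulocyte and monocyte precursors, from 0.185 ± 0.167 to 8.58 ± 1.14 (5.43 ± 0.43). Cebpe, the factor that drives the later granule stage, rose by 4.67 ± 0.28, Gfi1, a repressor needed for neutrophil maturation, by 1.5 ± 0.25, and Chil3, a chitinase-like protein, by 4.52 ± 0.23. Between luteolin and CIA the changes were 7.39 ± 0.33 for Mpo, 6.73 ± 0.30 for Elane, 4.89 ± 0.21 for Ctsg and 5.47 ± 0.35 for Prtn3, with adjusted p from 8.06e-08 to 9.97e-07. Ms4a3 stood at 6.06 without control replicate 1.

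The promoters of the 4 azurophil granule genes are shown because these genes rose together and are among the 12 largest rises. Each line gives the 250 bases before the gene's start from RefSeq, build GRCm38.p6 (the count table's own coordinates are mm39), 5′ to 3′ on the gene's strand, with GAGGAA or its reverse complement TTCCTC, the core bound by the myeloid factor PU.1, in capitals.
Elane, chr10:79886062-79886311, plus strand: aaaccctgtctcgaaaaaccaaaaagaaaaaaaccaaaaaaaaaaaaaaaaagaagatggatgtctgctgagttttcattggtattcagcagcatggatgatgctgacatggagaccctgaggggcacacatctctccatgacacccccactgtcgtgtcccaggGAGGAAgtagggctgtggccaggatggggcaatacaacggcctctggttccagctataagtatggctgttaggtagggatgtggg
Prtn3, chr10:79879417-79879666, plus strand: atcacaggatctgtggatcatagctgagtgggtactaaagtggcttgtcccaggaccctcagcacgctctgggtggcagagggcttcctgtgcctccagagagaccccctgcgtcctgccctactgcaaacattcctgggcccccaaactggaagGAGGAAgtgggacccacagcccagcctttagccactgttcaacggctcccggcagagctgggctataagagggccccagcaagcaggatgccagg
Mpo, chr11:87793534-87793783, plus strand: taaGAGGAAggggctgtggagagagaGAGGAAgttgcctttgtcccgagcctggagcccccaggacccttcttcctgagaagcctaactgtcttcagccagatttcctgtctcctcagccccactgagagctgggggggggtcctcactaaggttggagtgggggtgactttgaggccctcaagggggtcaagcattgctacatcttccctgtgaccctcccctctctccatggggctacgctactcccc
Ctsg, chr14:56102575-56102824, minus strand: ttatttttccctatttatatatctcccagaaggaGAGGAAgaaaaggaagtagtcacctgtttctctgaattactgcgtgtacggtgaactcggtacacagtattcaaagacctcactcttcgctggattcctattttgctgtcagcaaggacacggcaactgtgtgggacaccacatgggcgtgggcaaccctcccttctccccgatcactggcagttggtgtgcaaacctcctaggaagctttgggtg

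In windows of 300 bases, from 250 before to 50 after the start, the core was found in 6 of 11 promoters of the 10 list genes with an entry, 54.5%, against 28.3% of all 32851 promoters in the table. A motif of C/EBP factors, TTNNGCAAT on either strand, was found in 1 of the 11, 9.09%, against 2.18% of all. A match is a description of the letters and not a measured binding site.

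**Figure D4:**
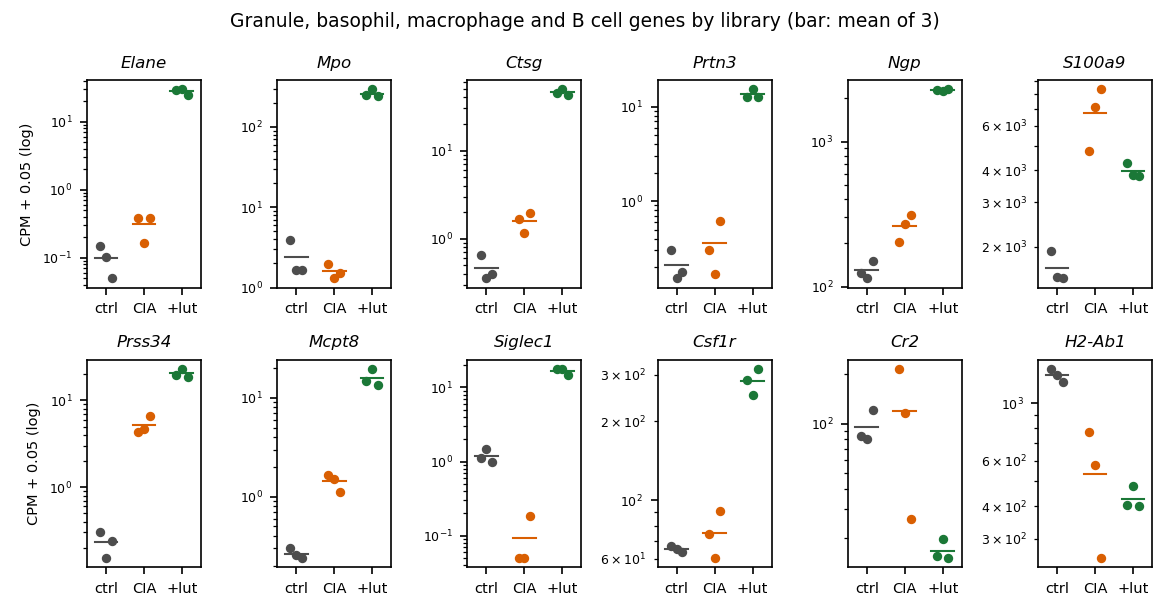
Levels of 12 genes of granulocytes, basophils, macrophages and B cells in each library as CPM + 0.05 on a log axis, for control, CIA and CIA with luteolin, with a bar at the mean of 3. Elane, Mpo, Ctsg and Prtn3 are high in the 3 luteolin libraries alone, Ngp and S100a9 in luteolin and CIA are above control, and Cr2 and H2-Ab1 are lower with luteolin than in control.

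Genes of later granules and of mature neutrophils also stayed above control. All 20 tested genes rose (median 1.56). Ngp, a protein of secondary granules, went from 125, 114 and 150.3 CPM in control to 2263, 2242 and 2299 with luteolin (4.13 ± 0.16) and stood at 204, 271 and 312 in CIA. Ltf, lactoferrin, rose from 46.7 ± 6.55 to 962 ± 50.9 CPM (4.36 ± 0.22) and Camp, the cathelicidin gene, from 2.93 ± 0.647 to 32.3 ± 1.07 (3.47 ± 0.29). For these 3 genes the luteolin libraries were above CIA as well, by 3.11 ± 0.15, 1.73 ± 0.20 and 1.99 ± 0.26. S100a9 stood at 1928, 1514 and 1503 CPM in control, 4783, 7109.7 and 8339 in CIA and 4287, 3843 and 3784 with luteolin (1.27 ± 0.18 over control). Ly6g, the surface marker of mature neutrophils, went from 0.342 ± 0.0223 to 1.57 ± 0.342 CPM, with 8.58 ± 2.73 in CIA. Mmp9, the gelatinase gene, was at 26.4 ± 2.32, 173 ± 45.1 and 50.8 ± 1.90 CPM in control, CIA and luteolin. Thus late-stage genes such as Ly6g and Mmp9 were lower with luteolin than in CIA (-2.45 ± 0.26 and -1.77 ± 0.17) and still above control (2.18 ± 0.33 and 0.95 ± 0.17).

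Basophil and mast cell genes rose in 9 of 9 tested (median 5.42), with summed levels of 22.0 to 25.5 CPM in control, 84.0 to 157 in CIA and 271 to 295 with luteolin. Prss34 and Mcpt8, proteases of mouse basophils, rose from 0.250, 0.102 and 0.190 to 19.7, 22.9 and 18.7 CPM (6.79 ± 0.28) and from 0.250, 0.205 and 0.190 to 14.8, 19.5 and 13.5 CPM (6.18 ± 0.25). Ms4a2, the beta chain of the high-affinity IgE receptor, went from 1.32 ± 0.377 through 19.7 ± 4.52 in CIA to 78.8 ± 5.42 CPM (5.90 ± 0.23), and Cpa3, carboxypeptidase A3, from 0.688 ± 0.119 to 34.4 ± 4.36 (5.65 ± 0.27). The 3 groups did not overlap for these 4 genes. Mcpt4, a protease of connective tissue mast cells, had no counts in any library.

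Among 12 monocyte genes 9 rose, none fell and 3 did not pass (median 2.30). F13a1, coagulation factor XIII, rose from 2.88, 3.02 and 2.34 to 98.4, 105 and 98.6 CPM (5.19 ± 0.23), and Fn1, fibronectin, from 1.70, 1.13 and 0.823 to 55.9, 46.1 and 57.9 CPM (5.43 ± 0.33). Cx3cr1, the fractalkine receptor, rose by 4.23 ± 0.16, Ccr2, the receptor by which monocytes leave the marrow, by 3.40 ± 0.23 and Ly6c2 by 2.84 ± 0.22. Ly6c2 stood at 4.65 ± 1.82 CPM in CIA, below its mean in control, 6.29 ± 0.882. Plac8 (0.01 ± 0.18), Treml4 and Ms4a6c (-0.19 ± 0.15) did not pass. Ms4a6c passed in a fit of the 6 libraries alone (-0.19).

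Genes of splenic macrophages were mostly above control with luteolin. Of 18 tested members 13 rose, 1 fell and 4 did not pass against control (median 1.63), whereas the median of CIA against the same control libraries was -2.81. Siglec1, a sialic acid lectin of marginal zone macrophages, stood at 1.08, 1.43 and 0.949 CPM in control, 0, 0 and 0.132 in CIA and 17.5, 17.5 and 14.8 with luteolin (3.84 ± 0.28, adjusted p = 4.40e-06). Csf1r, the receptor on which macrophages depend, rose from 66.9, 65.4 and 63.3 to 286, 250.5 and 315 CPM (2.12 ± 0.14). Vcam1, an adhesion molecule of red pulp macrophages, rose by 1.84 ± 0.16, Mertk, a receptor for dying cells, by 2.12 ± 0.23, and Mrc1, the mannose receptor, by 2.57 ± 0.25. Spic, the factor of red pulp macrophages, was the member that fell, from 35.7 ± 2.27 to 22.8 ± 0.542 CPM (-0.65 ± 0.14). Marco, a scavenger receptor, was at 31.8 ± 13.2 CPM in control and 40.8 ± 6.45 with luteolin and did not pass (0.36 ± 0.29, adjusted p = 0.347), nor did Cd5l (-0.58 ± 0.41, adjusted p = 0.280). Marco passed with no filter on low counts (0.37). Cd5l passed with no filter on low counts (-0.57). For both genes, the p of that fit cannot be set beside those of the filtered fit.

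Complement genes were higher in 12 of 17 tested and lower in 2 (median 1.61). C3, the central component, rose from 472, 463 and 499 to 1881, 1672 and 1967 CPM (1.95 ± 0.20), and C3ar1, the receptor of its fragment C3a, from 2.40 ± 0.660 to 31.5 ± 3.17 (3.70 ± 0.29). C1qb and C1qc, chains of C1q made by macrophages, rose by 2.57 ± 0.50 and 3.12 ± 0.43. Cd55, which protects cells from complement, fell from 258 ± 9.98 to 91.0 ± 2.38 CPM (-1.50 ± 0.13). Of 14 megakaryocyte and platelet genes 10 rose, none fell and 4 did not pass (median 2.33), with summed levels of 64.2 to 65.7 CPM in control and 206 to 214 with luteolin. Itga2b, the platelet integrin CD41, rose from 4.45 ± 1.06 to 60.4 ± 1.93 CPM (3.75 ± 0.27) and Pf4, platelet factor 4, from 1.35 ± 0.417 to 24.6 ± 0.929 (4.17 ± 0.34).

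B cell genes fell together. Of 19 tested 18 were lower and 1 higher, 18 of the falls by at least 2-fold against 5.8% of all genes, and the median was -2.12. Cd79a, a chain of the B cell receptor, stood at 110.5, 116 and 123 CPM in control, 81.2, 53.3 and 24.1 in CIA and 26.3, 29.7 and 22.5 with luteolin (-2.15 ± 0.33, adjusted p = 0.000479). Cr2 stood at 83.5, 80.9 and 120.4 CPM in control, 215, 116 and 26.3 in CIA and 15.5, 19.6 and 15.1 with luteolin (-2.50 ± 0.55), and Fcer2a at 35.0, 33.4 and 39.1 CPM in control, 51.9, 27.1 and 3.44 in CIA and 5.32, 6.32 and 6.12 with luteolin (-2.60 ± 0.65). The luteolin libraries lay below all control libraries for each of these genes, while the CIA libraries were uneven, the third of them lowest. Ighd, the IgD chain of naive B cells, fell (-2.52 ± 0.56), whereas Ighm, the IgM chain, rose from 2637 ± 82.5 to 4045 ± 331 CPM (0.62 ± 0.14).

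All 9 genes of the MHC class II pathway, by which antigen is presented to CD4+ T cells, were lower than in control (median -1.67). H2-Ab1, a class II chain, went from 1356, 1284 and 1213 to 405, 478 and 402 CPM (-1.58 ± 0.30) and Cd74, the invariant chain, from 952 ± 26.2 to 298 ± 26.7 CPM (-1.67 ± 0.33). Ciita, the class II transactivator, fell from 114 ± 3.24 to 32.7 ± 4.30 CPM (-1.80 ± 0.35). Class II genes are high in B cells, and 18 of the 19 B cell markers fell in the same libraries, from a summed level of 3915 to 4133 CPM in control to 866 to 1057 with luteolin for the 18. Their part in the result was not tested.

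Among 12 plasma cell genes 6 rose, 1 fell and 5 did not pass (median 0.83). Igha, the IgA chain, rose from 12.4, 11.4 and 10.2 to 80.0, 69.4 and 81.7 CPM (2.77 ± 0.17), and Jchain, which joins IgA and IgM, from 24.3 ± 1.63 to 125 ± 9.93 (2.36 ± 0.16). Ighg2c rose from 266 ± 35.1 to 633 ± 14.5 CPM (1.25 ± 0.09) and Ighg1 by 1.23 ± 0.14, whereas Ighg3 did not pass (-0.25 ± 0.13, adjusted p = 0.138). Genes of the immunoglobulin constant regions resemble each other, so reads may have been split between them. Mzb1, a chaperone of antibody secretion that B cells of the marginal zone also express, fell (-0.78 ± 0.22), with 57.2% of its exonic bases in other genes. Ighg3 passed in a fit of the 6 libraries alone (-0.25). Mzb1 missed the threshold without control replicate 3 or luteolin replicate 3 (-0.74 to -0.66).

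Many cell division genes were above control with luteolin. Cells that divide switch on the genes of G2 and M phase together, many through the CHR element (TTTGAA or TTCGAA) bound by the DREAM and B-Myb complexes. Of 60 tested genes of G2 and M phase 41 rose, 1 fell and 18 did not pass against control (median 0.63), and the median of CIA against control was -1.13. Mki67, a marker of dividing cells, stood at 749, 762 and 757 CPM in control, 288, 222 and 248 in CIA and 1443, 1432 and 1462 with luteolin (0.94 ± 0.09, adjusted p = 2.09e-05). Aurka, a kinase of the spindle poles, rose from 11.9, 12.3 and 13.3 to 31.2, 31.4 and 30.6 CPM (1.32 ± 0.11), and Anln, an actin-binding protein of the cleavage furrow, from 4.20, 5.43 and 3.86 to 19, 18 and 17.8 CPM (2.02 ± 0.15). Cdca8, a subunit of the chromosomal passenger complex, rose by 1.11 ± 0.10, Plk1, a mitotic kinase, by 1.18 ± 0.19 and Cdk1 by 1.03 ± 0.17. Ctcf, which shapes chromatin loops, was the member that fell (-0.68 ± 0.07).

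Parts of the promoters of Mki67 and Cdk1 are shown as examples, with the CHR element and the CCAAT box (CCAAT or ATTGG), which is bound by NF-Y, in capitals (RefSeq, GRCm38.p6, minus strand for both, 5′ to 3′ on the gene's strand).
Mki67, chr7:135716465-135716579: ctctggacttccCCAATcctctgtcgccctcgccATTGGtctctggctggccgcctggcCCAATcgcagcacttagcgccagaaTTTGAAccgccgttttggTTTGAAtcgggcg
Cdk1, chr10:69352913-69353007: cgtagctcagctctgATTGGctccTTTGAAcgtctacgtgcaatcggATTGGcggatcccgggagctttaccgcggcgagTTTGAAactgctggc

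Of the 60 genes of this list 52 had an entry, with 57 promoters of 300 bases. The CHR element, on either strand, was found in 45 of the 57, 78.9%, against 19.2% of all 32851 promoters, and the CCAAT box in 44, 77.2%, against 37.4%. All members with an entry were searched, however they moved.

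Of 58 S phase genes 26 rose, 7 fell and 25 did not pass (median 0.22). The falls numbered 11 in a fit of the 6 libraries alone and 3 without any 1 of the luteolin libraries. They numbered 4 without control replicate 2 or 3, with no filter on low counts and with a filter of 1 CPM in 3 libraries. E2f8, a repressor of the E2F family, rose from 12 ± 2.08 to 41.2 ± 1.49 CPM (1.78 ± 0.17), Cdc45, part of the replicative helicase, by 0.82 ± 0.08 and Rrm2, a subunit of ribonucleotide reductase, by 0.80 ± 0.12. Pold1, the catalytic subunit of DNA polymerase delta, fell (-1.07 ± 0.18), as did Ccne1, cyclin E1 (-0.74 ± 0.17). Of 36 genes of the cytosolic ribosome 35 were lower than in control and none higher (median -0.62, from -1.03 to -0.24). Rpl5, a protein of the large subunit with 26.7% of its exonic bases in other genes, fell from 3369.7 ± 116 to 2231 ± 65.0 CPM (-0.60 ± 0.12). The median of the ribosome list in CIA against the same control libraries was -0.70.

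**Figure D5:**
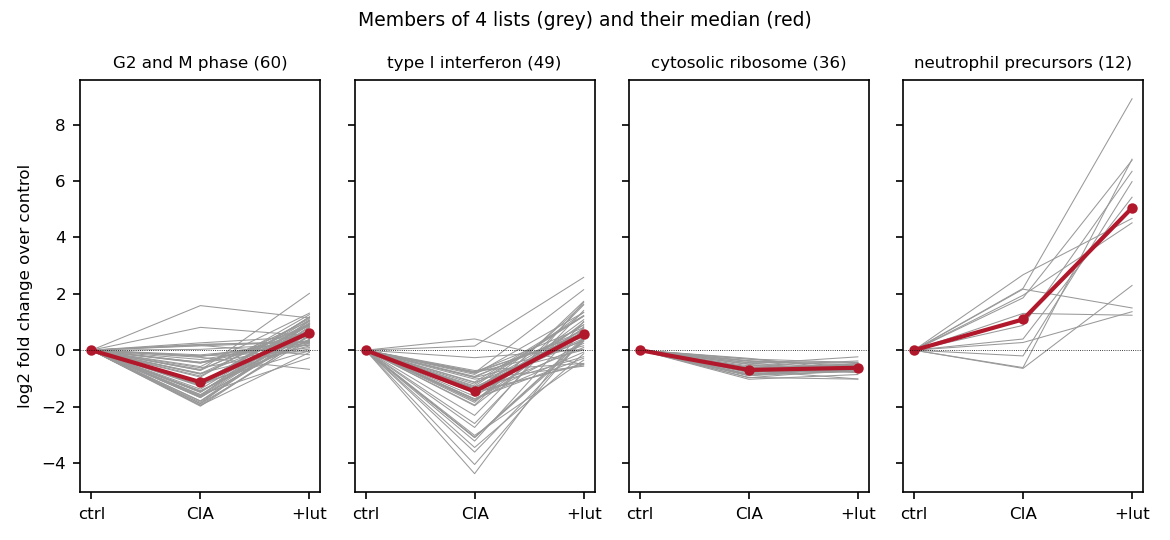
Log2 fold change over control of each tested member (grey) and of the median (red) of 4 gene lists, in CIA and in CIA with luteolin, with control at 0. Medians of the G2 and M phase and type I interferon lists lie at -1.13 and -1.47 in CIA and at 0.63 and 0.58 with luteolin. The ribosome list lies below 0 in both CIA groups. The neutrophil precursor list lies at 1.09 in CIA and reaches 5.05 with luteolin.

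Type I interferon switches on antiviral genes through factors that bind the ISRE, here read as GAAA, any 2 bases and GAAA again. Of 49 tested genes of this response 31 rose, 4 fell and 14 did not pass against control (median 0.58), whereas the median of CIA against control was -1.47. Oasl2, an antiviral protein related to oligoadenylate synthetase, stood at 69.2, 69.6 and 68.1 CPM in control, 13, 15.1 and 13.5 in CIA and 202, 228 and 199 with luteolin (1.61 ± 0.09, adjusted p = 6.20e-07). Ifit1, which binds viral RNA, went from 16.2, 15.6 and 13.8 to 46.8, 54.6 and 46.5 CPM (1.70 ± 0.10), with 2.28, 2.40 and 2.12 in CIA. Ifitm3, a membrane protein that blocks virus entry, rose from 16.9 ± 2.18 to 101 ± 9.47 CPM (2.58 ± 0.17), Isg15, a ubiquitin-like protein, by 1.63 ± 0.18, Lgals3bp, a galectin-binding protein, by 1.73 ± 0.12 and Irf7, the factor that amplifies the response, by 1.02 ± 0.13. Irf9 (-0.23 ± 0.08), Sp100 (-0.57 ± 0.15), Samd9l (-0.52 ± 0.15) and Helz2 (-0.47 ± 0.16) fell, a count of 4 that was 8 in a fit of the 6 libraries alone and 0 to 2 when a library was left out. Irf9 missed the threshold when any 1 of the 6 libraries was left out (-0.24 to -0.20) and with no filter on low counts and with a filter of 1 CPM in 3 libraries (-0.21 to -0.20). Sp100 missed the threshold without luteolin replicate 3 (-0.51). Samd9l missed the threshold without luteolin replicate 1, 2 or 3 (-0.50). Helz2 missed the threshold when any 1 of the 6 libraries was left out (-0.51 to -0.43).

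The ISRE letters in the promoters of Ifit1 and Isg15 are shown in capitals, or their reverse complement with TTTC on both sides, in stretches before the gene's start (RefSeq, GRCm38.p6, 5′ to 3′ on the gene's strand).
Ifit1, chr19:34640764-34640828, plus strand: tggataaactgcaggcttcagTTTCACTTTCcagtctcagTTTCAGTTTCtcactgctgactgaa
Isg15, chr4:156200859-156200918, minus strand: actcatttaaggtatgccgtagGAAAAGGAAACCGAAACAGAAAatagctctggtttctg

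The match lies in 2 places in Ifit1 and in 3 overlapping places in Isg15. It occurs in 3.44% of all 32851 promoters of 300 bases. The share within the list is not given, since only 37 of its 50 genes had an entry, fewer than the 80% set for such a check.

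Genes induced by interferon gamma rose in 19 of 23 tested and fell in 1, Ciita (median 0.80). Gbp2 and Gbp5, guanylate-binding proteins of cell-autonomous defence, rose from 91.4 ± 13.8 to 222 ± 20.1 CPM (1.28 ± 0.13) and by 1.35 ± 0.17. Iigp1, an immunity-related GTPase, rose from 8.94 ± 1.17 to 50.7 ± 1.30 CPM (2.51 ± 0.24). Cxcl9, a ligand of CXCR3, rose from 0.20, 0 and 0.316 to 2.78, 1.71 and 2.85 CPM (3.86 ± 0.60) and Cxcl10, another, by 2.49 ± 0.26. The inducing cytokine gene Ifng was at 0.970 ± 0.104 CPM with luteolin, a low level, and was above control by 3.54. Its part in these rises was not tested. Cxcl9 stood at 3.25 without control replicate 2 and 4.55 without control replicate 3.

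Among 21 inflammatory cytokine genes and their regulators 12 rose, 1 fell and 8 did not pass (median 0.86). Il1b rose from 73.1, 89.2 and 79.2 to 243, 168 and 253 CPM (1.46 ± 0.22), with 358 ± 118 in CIA. Il12b, the chain shared by IL-12 and IL-23, rose from 4.04 ± 0.253 to 11.1 ± 1.41 CPM (1.45 ± 0.22) and Il27, a cytokine subunit of myeloid cells, from 0.558 ± 0.229 to 6.60 ± 0.128 (3.58 ± 0.28). Il23a, the other chain of IL-23, was the member that fell, from 3.90, 5.46 and 5.48 to 1.66, 2.34 and 1.99 CPM (-1.31 ± 0.38, adjusted p = 0.0169), with 10.1, 25.8 and 32.2 in CIA. Of 20 chemokine and receptor genes 12 rose, 3 fell and 5 did not pass (median 0.98). Ccl6, a myeloid chemokine, rose from 41.0 ± 5.39 to 713 ± 48.0 CPM (4.12 ± 0.19), Ccl2, which attracts monocytes, by 3.02 ± 0.35 and Cxcl3, which attracts neutrophils, by 2.88 ± 0.33. Ccl22 (-0.90 ± 0.16), Ccr9 (-1.06 ± 0.18) and Cxcr4 (-0.36 ± 0.12) fell. Il23a missed the threshold without control replicate 2 or 3 or luteolin replicate 1 or 3 (-1.30 to -1.18). Cxcr4 missed the threshold without control replicate 1 or 3 or luteolin replicate 2 or 3 (-0.38 to -0.24) and with DESeq2 size factors and with a filter of 1 CPM in 3 libraries (-0.34 to -0.33).

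Joint damage in arthritis involves proteases of the matrix and osteoclasts, the cells that resorb bone under the ligand RANKL. In a list of such genes 16 of 23 tested were above control and 2 below (median 1.78). Spp1, osteopontin, stood at 10.7, 10.3 and 18.9 CPM in control, 663, 1066 and 3602 in CIA and 72.0, 34.8 and 79.0 with luteolin (2.23 ± 0.58 over control, adjusted p = 0.00943). Tnfsf11, the RANKL gene, was at 0.265 ± 0.117, 18.1 ± 10.9 and 4.40 ± 0.776 CPM in control, CIA and luteolin (4.01 ± 0.53), and Col5a1, a fibrillar collagen chain, at 0.289 ± 0.109, 37.7 ± 20.4 and 4.58 ± 1.65 (4.0 ± 0.55). These 3 genes were thus lower with luteolin than in CIA (-4.84 ± 0.63, -2.03 ± 0.37 and -3.04 ± 0.38) and still above control. Timp3, an inhibitor of matrix proteases, rose from 0.282 ± 0.108 to 16.4 ± 1.39 CPM (5.82 ± 0.39), Mmp12, macrophage elastase, by 4.46 ± 0.39 and Mmp14, a membrane-bound protease, by 2.14 ± 0.20.

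Energy metabolism genes were mostly above control. Of 23 glycolysis genes 18 rose and none fell (median 0.97, 1.47 in CIA). Hk2, a hexokinase, rose from 46.9 ± 4.04 to 130.02 ± 6.33 CPM (1.47 ± 0.19), Eno1, enolase, by 1.43 ± 0.19, and Pkm, pyruvate kinase, from 482 ± 36.1 through 2591 ± 1067 in CIA to 1338 ± 174 CPM (1.47 ± 0.23). Of 25 genes of the hypoxia response 11 rose, 1 fell and 13 did not pass (median 0.52). Arg1, arginase 1, stood at 1.0, 0.538 and 0.253 CPM in control, 5.84, 5.27 and 15.2 in CIA and 56.8, 38.2 and 54.4 with luteolin (6.33 ± 0.51), and Nos2, inducible nitric oxide synthase, at 4.95 ± 1.96, 93.8 ± 49.3 and 75.2 ± 27.0 (3.94 ± 0.44). Both enzymes use arginine and are typical of activated myeloid cells. Of 53 genes of oxidative phosphorylation 30 rose, 1 fell and 22 did not pass, by small amounts (median 0.35), with Cox6b1 at 0.81 ± 0.09 and Uqcrb at 0.77 ± 0.09. Arg1 stood at 6.92 without control replicate 1.

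Genes of protein folding in the endoplasmic reticulum rose in 13 of 20 tested and fell in 1 (median 0.57, -0.22 in CIA). Calr, the chaperone calreticulin, rose from 1114 ± 34.7 to 2332 ± 160.2 CPM (1.07 ± 0.10), Pdia3, a disulfide isomerase, by 0.86 ± 0.06, and Creld2, a secreted stress protein, by 0.86 ± 0.07. Xbp1, the factor of secretory cells, rose from 175 ± 1.96 to 323 ± 33.4 CPM (0.89 ± 0.10). Trib3, a target of the ATF4 branch, fell (-0.92 ± 0.19).

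In absolute level, again passing over immunoglobulin genes such as Ighm, the largest gains among named genes whose groups did not overlap were in S100a9, Ngp, Lyz2, Myh9, C3 and Itgam. Lyz2, lysozyme of myeloid cells, went from 398, 366 and 309 to 2242, 1986 and 2251 CPM (2.59 ± 0.26) and Itgam, the integrin chain CD11b, from 447 ± 6.60 to 1807 ± 119 (2.02 ± 0.13), although 68.7% of the exonic bases of Itgam overlap other genes. Myh9, a non-muscle myosin, rose from 5332 ± 63.7 to 6761 ± 187 CPM, a small change in ratio (0.34 ± 0.09). The largest losses were in Macf1, Rpl5, Swap70, Ncl, Ddx5 and H2-Ab1. Macf1, a linker of the cytoskeleton, fell from 3625 ± 128 to 1579 ± 118 CPM (-1.20 ± 0.20), Swap70, a signalling protein of B cells, from 1783 ± 89.0 to 662 ± 50.9 (-1.43 ± 0.25), and Ncl, nucleolin, from 6032 ± 719.7 to 4953 ± 67.6 (-0.28 ± 0.10). Ncl missed the threshold without control replicate 1 or 2 or luteolin replicate 1, 2 or 3 (-0.30 to -0.19) and with DESeq2 size factors, by DESeq2 and with a filter of 1 CPM in 3 libraries (-0.26 to -0.25).

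Several of the largest rises rest on few control counts. Serpina3b, a serine protease inhibitor of the antichymotrypsin family, had 0, 0 and 3 counts in control, 63, 71 and 106 in CIA and 210, 149 and 141 with luteolin. Its summed counts were in a ratio of 159.6 (exact 95% interval 32.8 to 994 on halved counts), and the fitted change was 7.13 ± 0.60. Samd5 had 0, 6 and 0 counts in control, 8, 10 and 0 in CIA and 280, 240 and 243 with luteolin, a ratio to control of 122 (41.4 to 594; fitted 6.85 ± 0.68). Dmkn, dermokine, had 2, 2 and 0 counts in control and 192, 230 and 184 with luteolin, a ratio of 145 (39.8 to 1203; fitted 7.06 ± 0.72). Muc13, a membrane mucin, rose from 0.350, 0.359 and 0.285 to 43.4, 46.0 and 40.9 CPM (7.01 ± 0.25), and Prg3 from 0.100, 0.0512 and 0.0316 to 5.86, 6.29 and 5.14 (6.44 ± 0.43). Serpina3b stood at 6.54 without control replicate 1 and 10.31 without control replicate 3. Samd5 stood at 6.25 without control replicate 1 and 10.90 without control replicate 2.

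Among the largest falls, Kmo, an enzyme that breaks down tryptophan, went from 80.9, 87.3 and 64.2 to 12.8, 17.0 and 11.9 CPM (-2.48 ± 0.58), and Tgfb3, a ligand of the TGF-beta family, from 65.7, 64.2 and 49.0 to 10.5, 11.4 and 7.93 (-2.58 ± 0.52). Havcr1, which encodes TIM-1, and Timd2, its relative, had changes of -2.64 ± 0.55 and -2.68 ± 0.39. Fcamr fell from 9.18 ± 0.803 to 1.28 ± 0.285 CPM (-2.83 ± 0.47) and Shank1, a scaffold protein, from 42.7 ± 5.82 to 7.05 ± 0.783 (-2.60 ± 0.31). Ackr2, a decoy receptor for chemokines, went from 6.03 ± 1.43 in control and 3.55 ± 2.03 in CIA to 1.04 ± 0.490 CPM with luteolin (-2.55 ± 0.48).

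For some genes no difference between luteolin and CIA was called. They differed from control in the same direction in both CIA groups, and the estimates of the 2 CIA groups differed by less than 0.5 on the log2 scale. A p that missed the threshold does not show that the 2 CIA groups were alike, and the CIA libraries were spread widely for genes such as Chst3. Both comparisons with control share the control libraries, so their values are given side by side. With the largest changes, by the same exclusions, were Il21, Cd40lg, Mmrn1, Rab27b, Cavin2 and Ccdc8 above control and Fcamr, Shank1, Tgfb3, Kmo, Chst3 and Ephx1 below. Mmrn1, multimerin of platelets and endothelium, stood at 0.207 ± 0.126 CPM in control, 8.38 ± 3.76 in CIA and 11.7 ± 2.60 with luteolin (5.25 ± 0.45 and 5.74 ± 0.45 over control). Rab27b, a GTPase of granule release, had changes of 5.59 ± 0.51 and 5.65 ± 0.51, Cavin2, a caveola protein, of 4.85 ± 0.52 and 5.28 ± 0.51, and Ccdc8 of 4.99 ± 0.50 and 5.25 ± 0.49. Chst3, a chondroitin sulfotransferase, was at 338 ± 21.8, 90.8 ± 65.1 and 64.4 ± 9.39 CPM (-1.89 ± 0.43 and -2.39 ± 0.44) and Ephx1, an epoxide hydrolase, at 178 ± 7.69, 26.1 ± 15.0 and 35.7 ± 6.64 (-2.77 ± 0.35 and -2.32 ± 0.35).

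Other genes differed with luteolin from both control and CIA, while CIA against control did not pass. The rises were led by Samd5, Mpo, Prtn3, Fn1, Fcnb and Ms4a3, all but Samd5 genes of myeloid cells or their precursors. The falls were led by Fcer2a, Ackr2, Cr2, Klhl14, Cd22 and Lamp3. Cd22, an inhibitory receptor of B cells, stood at 420.4, 412 and 438 CPM in control, 410.4, 243 and 56.9 in CIA and 73.4, 97.5 and 76.5 with luteolin (-2.36 ± 0.51). Klhl14, an adaptor of B cells, went from 16.6 ± 2.21 and 11.4 ± 4.97 to 3.03 ± 0.948 CPM (-2.45 ± 0.31), and Lamp3, a lysosomal protein of mature dendritic cells, from 4.50 ± 0.622 and 4.96 ± 3.99 to 0.905 ± 0.329 (-2.33 ± 0.60). A p that missed the threshold in CIA does not show that CIA and control were alike for these genes, and the CIA libraries of Cd22, Cr2 and Fcer2a were spread widely.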

How the data were processed

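Per the submitters' processing notes, reads were trimmed with Trimmomatic 0.36 and counted per gene with featureCounts of Subread 1.5.1 against a build named mm39; an extraction protocol names the hamster assembly CHOK1GS, and the strand setting is not given in the sources used here. The authors deposited raw counts per gene for 9 libraries, in 56860 rows, and 19348 genes passed edgeR's filter by group. They were fitted with edgeR 4.0.16 (R 4.3.3; TMM, quasi-likelihood test, 2-sided, 1 mean per group, Benjamini-Hochberg adjustment). The numbers of the replicates are taken from the labels.

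Because both mates seem to have been counted, counting intervals (exact, 95%) are also given on halved counts; they cover counting error only. Exons of other genes overlap 279 of 908 genes checked, and more than 25% of the exonic bases in 42. Replicates differed beyond sampling noise, by a chi-square over its degrees of freedom of 5.51 to 16.1 within control and within luteolin. Within CIA, whose libraries enter the spread behind each p, it was 32.2 to 114. Counting both mates of a pair would itself raise this ratio. On simulated counts of this comparison with 200 of 19348 genes changed, 20% of 1.5-fold, 62% of 2-fold and 94% of 4-fold changes were recovered, with 4 unchanged genes called. In the data 45% of genes were called, a far larger share, so these figures do not measure recovery or false calls in the data.

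The genes, lists and comparison were chosen with earlier results of these data known, so no list was tested. Genes named are the 12 largest rises and falls (mean of at least 2 CPM, groups not overlapping), the 6 largest by CPM difference, up to 4 per list with the smallest p, 19 helper genes, and 6 each way that stayed within 0.5 of CIA or differed from both groups. Rankings pass over immunoglobulin and T cell receptor genes, pseudogenes and unnamed gene models. Others were named after their values were seen, as were the PU.1 and C/EBP motifs. Promoters are from RefSeq (GRCm38.p6). DESeq2 1.42.0, other scalings and filters, the 6 libraries alone, a replicate block, halved counts and leaving out each library were tried. Some genes picked by these criteria are not reported here.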

Additional observations from a re-analysis of the deposited data

How the results depend on the processing

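The count of genes that differed between luteolin-treated CIA mice and control was 8708 in the fit reported and lay between 8016 (at least 1 CPM in 3 or more libraries) and 10792 (only the 6 libraries) under the other settings, with 8670 by DESeq2's size factors, 8931 by upper-quartile scaling, 9049 by DESeq2, 8630 with no filter and 8535 with counts halved. Leaving out 1 library gave 6835 to 7552. The count at 2-fold or more, 3669, lay between 2906 and 4024, and that of genes whose groups did not overlap, 12246, was 13758 with no filter and 10866 with the stricter one. The share of calls that were higher, 53.8%, was 48.4% with upper-quartile scaling and 61.6% without luteolin replicate 2. Groups share replicate numbers in the labels, but same-numbered control and luteolin libraries deviated together only weakly (r of 0.095, 0.094 and 0.195 over 15065 genes), so the numbers were not taken to pair them, although each library correlated best with its own number. With a replicate block 8764 genes were called, 3647 of them at 2-fold or more. Counts of list members moved by more than 1.5 times in counts of 7 or fewer only: in the fit of the 6 libraries alone falls in T cell receptor signalling went from 6 to 10 and rises among heme and iron genes from 7 to 13, falls among erythroid genes went from 6 to 2 or 3 under 7 settings, and the remaining ones, apart from S phase, were of 4 genes or fewer. Among the genes named no called change reversed its direction under any setting, and calls that changed are given beside the genes.

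Limits are the 3 libraries in each group, the unknown source of the replicates, counts of 6 or fewer over all control libraries for genes such as Elane and Serpina3b, and control libraries in which Cd4 was at 2.92 CPM on average.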

Other observations

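Further lists, chosen like the others with earlier results known, showed smaller or divided differences between luteolin-treated CIA mice and control. Over all genes tested 24.2% were higher and 20.8% lower. Cholesterol synthesis genes were at 22.7% and 18.2%, and genes of p53 and cell cycle arrest at 20% and 13.3%. Counts near or below the shares of all genes do not set a list apart. Of 22 genes of the NRF2 antioxidant response 10 rose, none fell and 12 did not pass. Gpx1, glutathione peroxidase, of whose exonic bases 84.0% lie in other genes, rose from 75.2 ± 7.43 to 315 ± 9.98 CPM (2.07 ± 0.09), and G6pdx, which feeds NADPH production, rose by 1.40 ± 0.20, whereas the classical target Nqo1 did not pass (-0.32 ± 0.23, adjusted p = 0.286). Among 6 genes of the aryl hydrocarbon receptor, a receptor for flavonoids among other ligands, 1 rose, 2 fell and 3 did not pass. Cyp1a1, its best known target, had 8, 7 and 34 counts in control and 10, 6 and 4 with luteolin. Of 21 genes of heme and iron 7 rose, 2 fell and 12 did not pass, and Alas1, the first enzyme of heme synthesis, rose from 41.4 ± 2.73 to 197 ± 13.9 CPM (2.25 ± 0.15). Of 22 cholesterol synthesis genes 5 rose, 4 fell and 13 did not pass, and their regulator Srebf2 fell (-0.64 ± 0.12).

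Among 22 immediate early genes 6 rose, 7 fell and 9 did not pass. Fosl2 rose from 23.1 ± 0.756 to 102 ± 7.27 CPM (2.14 ± 0.24), while Nr4a1, a factor induced by antigen receptors, fell from 10.8 ± 0.804 to 4.17 ± 0.611 (-1.37 ± 0.16) and Egr3 fell as well (-2.07 ± 0.46). Of 24 genes of T cell receptor signalling 9 rose, 6 fell and 9 did not pass, with Zap70, a kinase of the receptor, at 1.5 ± 0.26. Of 15 genes of p53 and cell cycle arrest 3 rose, 2 fell and 10 did not pass, of 12 dendritic cell genes 4 rose, 4 fell and 4 did not pass, of 17 genes of cytotoxic and NK cells 6 rose, 4 fell and 7 did not pass, and of 7 tested histone genes none rose, 3 fell and 4 did not pass. Among 16 erythroid genes 4 rose, 6 fell and 6 did not pass, and the globin gene Hbb-bs was at 1.75, 2.46 and 2.41 CPM in control and 0.570, 0.403 and 0.238 with luteolin (-2.41 ± 0.30), whereas Gata1, a factor that megakaryocytes and basophils share, rose from 0.178 ± 0.0690 to 3.6 ± 0.451 CPM (4.30 ± 0.31).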
